A study of Mus musculus with 6 samples.

Results

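Genes outside the myelin and spectrin families were compared between ribosome-bound RNA of Ank3 knockout and control mouse brain. The set held every gene read at a mean of at least 5 CPM (counts per 1000000 counts) over 4 libraries, after 45 genes of a myelin list and 5 spectrin genes at that level had been set aside. That left 11462 of the 24421 genes in the authors' table, and 15069 genes entered the statistical fit. All 11512 genes at or above the limit passed the filter on low counts, so no member was lost to it. Yrdc, at a mean of 5.0027 CPM, was the gene just inside the limit, and Slc25a35, at 4.996 CPM, was just outside.

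All mice, controls included, carried NG2CreERTM, a tamoxifen-inducible Cre recombinase under control of the gene of NG2 (Cspg4), together with 1 Rpl22HA allele. After recombination that allele gives an HA-tagged ribosomal protein, so that an HA antibody can retrieve ribosomes of Cre-active cells with the RNA on them (RiboTag). Control mice were NG2CreERTM;Rpl22HA/+. Mice of the other genotype were NG2CreERTM;Ank3F/F;Rpl22HA/+ and are called icKO, the labels' name for the inducible AnkG knockout. Mice of both genotypes received tamoxifen at 8 weeks of age, at 100 mg/kg per day on 5 days, and were analysed 1 month later. Each library was made from the pooled whole brains of 3 mice. The comparison used 2 control and 2 icKO immunoprecipitates (IP) of the 6 libraries, and the inputs were not used here. One of the 2 icKO IPs, replicate 1, is titled cKO, while its genotype label reads AnkG icKO.

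Ankyrin-G, the product of Ank3, joins membrane proteins such as ion channels and adhesion molecules to the spectrin and actin skeleton beneath the membrane. It is known for assembling the axon initial segment and the node of Ranvier in neurons, and it is also found on the glial side of the paranodal junction. Actin filaments next to that skeleton are cross-linked by alpha-actinins, pulled by myosin II, decorated by side-binding proteins such as drebrin, and tied to microtubules and intermediate filaments by plakins. NG2 is made by oligodendrocyte precursors, which give rise to myelinating oligodendrocytes, and also by pericytes and smooth muscle cells of vessels, so the driver is not restricted to 1 lineage.

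The control IPs held 20754765 and 23930812 counts, the icKO IPs 19569611 and 18968806, and 3 counts corresponded to 0.125 to 0.158 CPM. Libraries of a pair differed little: chi-square over degrees of freedom, which is near 1 for pure sampling noise, was 2.19 within the control pair and 2.13 within the icKO pair, against 72.3 to 82.8 in the 4 pairs across the genotypes. The titles call the 2 IPs of a group biological replicates. The labels do not say whether the pools of a group held mice of separate litters or preparations. Each p-value therefore reflects only how far these samples spread, and that spread may be technical. It was largely pooled over genes, with 29.7 prior against 2 residual degrees of freedom. With a biological coefficient of variation of 3.01%, small differences passed the test: 6413 of 11462 genes (56%) had an adjusted p under 0.05, 2838 of them higher (24.8%) and 3575 lower (31.2%) in icKO. Of all 11462 genes, 8892 (77.6%) had groups that did not overlap. A change of at least 1.5-fold was reached by 423 higher genes (3.69%) and 495 lower genes (4.32%), and a change of at least 2-fold by 41 in each direction (0.358% each). The median log2 change of all 11462 genes was -0.03, and 5% of them lay below -0.56 and 5% above 0.54. Class counts below are to be read against these shares. So are statements that groups did not overlap or that both icKO libraries lay beyond both controls.

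Every level is given as CPM scaled with TMM factors, in the order control 1, control 2, icKO 1 and icKO 2, and every change as log2 of icKO over control. Other scalings shifted all genes together, by -0.09 for library totals, -0.05 for markers of neurons, astrocytes, microglia and endothelium, and 0.67 for the myelin list, which itself summed to 36520 and 36770 CPM in control and 23520 and 23380 CPM in icKO IPs, a ratio of 0.64. Under the myelin scaling a class whose median lay between -0.67 and 0 therefore turned positive, and that value is given beside each such class. A further fit removed each library's trend with transcript length, and its value is given beside a class median or a called gene that it moved by more than 1.5 times. Leaving out each library in turn moved the medians of 16 of the 48 classes by more than 1.5 times, 4 of them through 0, and the range is then given beside the class.

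Ank3 (chromosome 10, 69398773 to 70027438, mm10, plus strand) was read at 1362, 1333, 1145 and 1146 CPM. The icKO libraries were both below the controls, at a log2 change of -0.23 (SE 0.022, edgeR quasi-likelihood test, Benjamini-Hochberg adjusted p = 1.31e-10), which was -0.42 with the length offset. Which exons were deleted is not in the labels, and reads from the rest of the gene are part of this count.

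Transcripts of the X-inactivation centre and the Y chromosome separated the groups. Xist, the long non-coding RNA that silences 1 X chromosome in female cells, was at 698.5 and 639 CPM in control and at 2434 and 2427 CPM in icKO IPs, a log2 change of 1.86 (SE 0.027, edgeR adjusted p = 3.38e-32). Tsix, which overlaps it on the other strand, was at 4.54, 5.11, 18.8 and 18.1 CPM, and since the strand setting of the counting is not given in the sources used here, its reads and those of Xist cannot be told apart. Y-linked genes went the other way. Ddx3y, an RNA helicase gene, was at 50.9, 48.7, 21.4 and 20.8 CPM (-1.24, edgeR adjusted p = 3.59e-15), and Kdm5d, Eif2s3y and Uty were lower by log2 changes of -0.93, -0.89 and -0.78. No library of one group overlapped the other for these genes. The labels do not give the sex of the pooled mice, so a difference in the sexes and the genotype cannot be told apart for any gene below.

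The labels name oligodendrocytes as the cell type, and the IPs also held RNA of other cells. Markers of oligodendrocyte precursors summed to 12790 and 12870 CPM in control and 10940 and 11030 CPM in icKO IPs. Neuron and synapse markers summed to 10340 and 10360 CPM in control and 12430 and 12460 CPM in icKO IPs, a ratio of 1.2. Astrocyte markers summed to 4317 and 4337 CPM in control and 4070 and 4054 CPM in icKO IPs, a ratio of 0.939. Microglia markers summed to 130 and 118 CPM in control and 137 and 142 CPM in icKO IPs, a ratio of 1.13. No marker of either list was at 0 in every library. Neuropeptide genes summed to between 440.1 and 455 CPM with Hcrt at 0 in every library. The lists that differed most between the groups were those of vessel-wall cells, described further below, and myelin. In bulk RNA of this kind, fewer cells of a type and less RNA per cell cannot be told apart. A different recovery of RNA by the IP cannot be told from either, as the inputs were not used.

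Cytoskeletal genes stood among the largest rises. Of the 12 genes that were at least 2-fold higher in icKO and had a mean of at least 100 CPM, 9 (75%) are in the cytoskeletal lists: Dbn1, Myh10, Actn1, Actn2, Actn4, Clip1, Ppp1r9a, Limch1 and Myo5a. Of all 2115 genes at that level 120 (5.67%) are in those lists. The other 3 were Xist, Fbxo34 and Mprip. The bound of 100 CPM and the display of Mprip and Limch1 were chosen after the values were seen. The lists were themselves chosen with earlier results of these data known, so these shares are a description and not a test. Only Rgs5 was at least 2-fold lower at that level.

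Drebrin (Dbn1, chromosome 13, 55473429 to 55488111, mm10, minus strand), a side-binding protein of actin filaments known from dendritic spines, was at 747 and 741 CPM in control and 1983 and 1956 CPM in icKO IPs. Both icKO libraries lay far above both controls, at a log2 change of 1.40 (SE 0.022, edgeR adjusted p = 2.17e-31). Neurabin-1 (Ppp1r9a, chromosome 6, 4902917 to 5165661, plus strand), which binds actin and protein phosphatase 1, was at 3942, 3827, 8822 and 8646 CPM (1.17, edgeR adjusted p = 2.73e-31). Its relative spinophilin (Ppp1r9b) was at 764, 772, 1179 and 1157 CPM (0.61, edgeR adjusted p = 1.3e-20). Mprip, which binds actin and targets myosin phosphatase, was at 2473, 2382, 5303 and 5348 CPM (1.13), and Limch1, an activator of non-muscle myosin II, was at 956, 952, 2050 and 2029 CPM (1.10). For none of these 5 genes did the groups overlap, as for 77.6% of all 11462 genes. Among all 32 actin side-binders and bundlers 14 rose and 8 fell, a median log2 change of 0.09 that was -2.8e-05 with library totals, 0.76 when scaled to the myelin list and 0.05 to 0.11 without 1 library. Those that fell included caldesmon (Cald1, 277, 277, 172 and 173 CPM, -0.69), a regulator of smooth muscle and non-muscle actomyosin, and Coro1b (-0.41), a coronin of branched actin.

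Alpha-actinins, plakins and nesprins rose as a class: 10 of 12 were higher and 0 lower, 8 of them by at least 1.5-fold. The median log2 change was 0.89, which was 0.51 with the length offset, where again 10 rose. Alpha-actinins cross-link actin, plakins join it to other filaments and nesprins hold the nucleus to it. Actn1 was at 241, 245, 558 and 555 CPM (1.19, edgeR adjusted p = 1.18e-26). Actn2 was at 173, 162, 370 and 399 CPM (1.2, edgeR adjusted p = 1.33e-23). Actn4 was at 402, 381, 778 and 799 CPM (1.01, edgeR adjusted p = 8.85e-25). The 3 actinins therefore rose to a similar extent, with both icKO libraries above both controls each time. Plectin (Plec) was at 2363, 2251, 4348 and 4417 CPM (0.93), Macf1 at 2624, 2558, 4934 and 4926 CPM (0.93, or 0.54 with the length offset) and dystonin (Dst) at 5067, 4903, 8995 and 9030 CPM (0.85, or 0.47 with the length offset). Utrophin (Utrn, 0.93), which links actin to the dystroglycan complex, Syne2 (0.81), Syne1 (0.56) and dystrophin (Dmd, 0.49) were higher too, the last 3 at 0.44, 0.13 and 0.21 with the length offset. Evpl (0.20) and Syne3 (0.17) did not pass the test.

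Heavy and light chains of non-muscle myosin II went in opposite directions. Myosin II is a motor of 2 heavy chains with essential and regulatory light chains. The heavy chain Myh10 (chromosome 11, 68691559 to 68816632, mm10, plus strand) was at 1476, 1457, 3563 and 3492 CPM, a log2 change of 1.27 (SE 0.020, edgeR adjusted p = 2.75e-31). Myh9 was at 773, 778, 1434 and 1440 CPM (0.89, edgeR adjusted p = 8.91e-26) and Myh14 at 210.5, 205, 329 and 336 CPM (0.68, edgeR adjusted p = 2.26e-18). All 3 heavy chains were thus higher in both icKO libraries. The regulatory light chain Myl9, the form of smooth muscle, was at 60.4, 61.7, 30.9 and 29.3 CPM (-1.02, edgeR adjusted p = 1.89e-14). The other light chains were lower as well, with Myl12a at -0.59, Myl6 at -0.46 and Myl12b at -0.39 (-0.25 with the length offset), as was the light chain kinase Mylk at -0.73. When scaled to the myelin list, which adds 0.67, only Myl9 and Mylk of these stayed below 0. In all, 6 of 12 genes of the list rose and 5 fell, with a median of 0.09, which was 0.02 with the length offset.

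Unconventional myosins carry cargo along actin or tether membranes to it. Of 16, 12 rose and 2 fell, and 6 rose by at least 1.5-fold. The median was 0.20, or 0.08 with the length offset, where 9 rose and 2 fell. Myo5a, a vesicle motor, was at 1583, 1553, 3395 and 3237 CPM (1.08, edgeR adjusted p = 2.17e-28), and the other class V genes Myo5b and Myo5c changed by 0.88 and 0.60. Myo18b, described from muscle, was at 7.58, 8.64, 16.9 and 16.3 CPM (1.03, edgeR adjusted p = 2.65e-08), while its relative Myo18a changed by 0.18, or 0.06 with the length offset. The class I myosins Myo1d (-0.40) and Myo1c (-0.21) were the 2 that fell, and Myo1c lost its call without control replicate 1 (-0.16), without icKO replicate 2 (-0.16) and in DESeq2 (-0.21).

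The rest of the 15 largest rises stood at a range of levels. Nexilin (Nexn), a filament-binding protein of muscle, was at 24.95, 23.4, 64.0 and 60.5 CPM (1.36, edgeR adjusted p = 3.99e-17). Angiomotin (Amot), which ties junctions to actin, was at 53.6, 54.2, 127 and 120.5 CPM (1.2, edgeR adjusted p = 1.4e-19). Nebulin (Neb), a giant protein of thin filaments, was at 6.37, 5.03, 14.4 and 13.02 CPM (1.27, edgeR adjusted p = 8.37e-09). The groups did not overlap for any of the 3, as for 77.6% of all 11462 genes. Clip1, which binds growing microtubule ends, was at 346, 322, 751 and 765 CPM (1.18, edgeR adjusted p = 4.48e-26). Micalcl (1.37), Miip (1.34), Papln (1.21) and Fbxo34 (1.21) complete the 15 largest rises together with Col1a1, a fibrillar collagen chain, at 7.77, 8.72, 23.3 and 20.6 CPM (1.41, edgeR adjusted p = 9.44e-12).

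**Figure D1:**
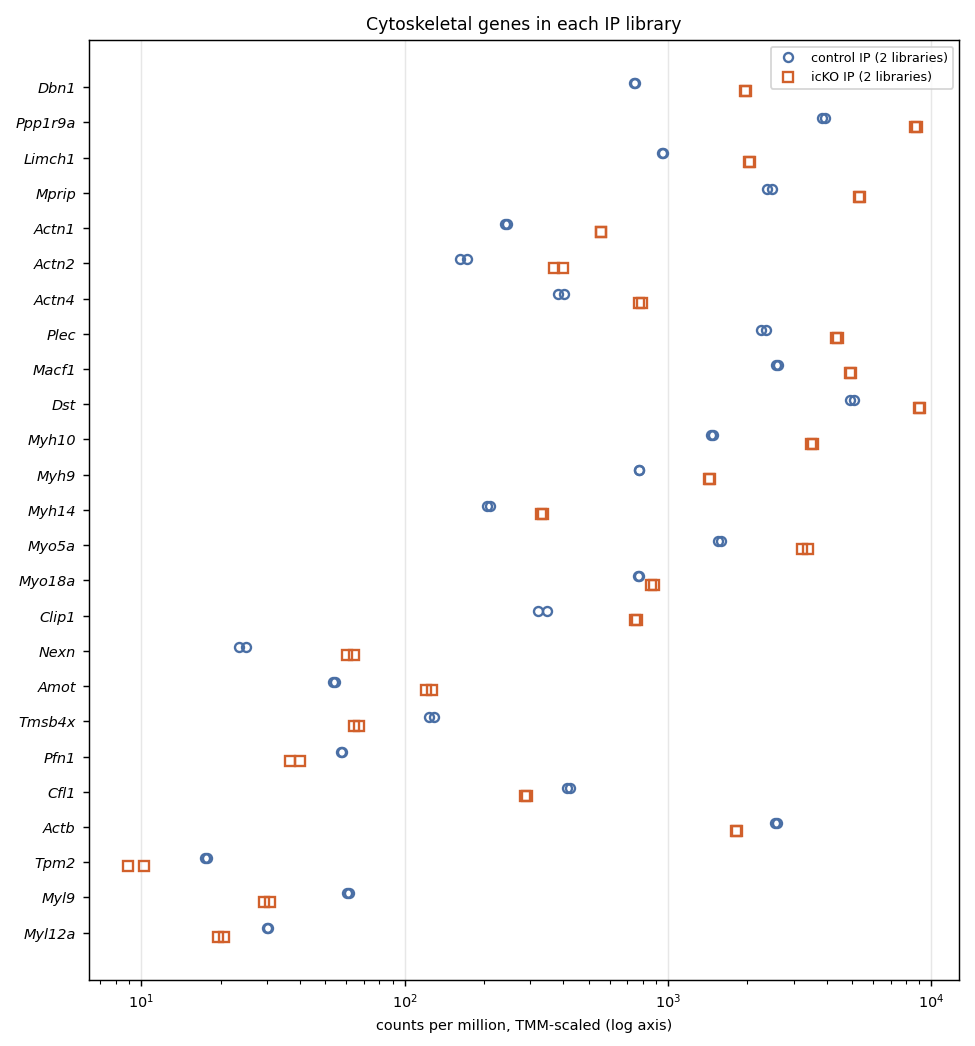
Levels of 25 cytoskeletal genes in each library, as TMM-scaled CPM on a log axis, with circles for the 2 control IPs and squares for the 2 icKO IPs. Squares lie to the right of circles from Dbn1 down to Amot and to the left from Tmsb4x (thymosin beta-4) down to Myl12a, and the distance between the 2 libraries of a group is small beside the distance between groups for most genes.

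Actin itself and the small proteins that turn filaments over were lower. Of 30 actins, tropomyosins and turnover factors, 1 rose and 26 fell, with a median of -0.30, or 0.37 when scaled to the myelin list. With the length offset 1 rose and 20 fell. Thymosin beta-4 (Tmsb4x), which sequesters actin monomers, was at 130, 124, 67.4 and 64.0 CPM (-0.95, or -0.62 with the length offset, edgeR adjusted p = 3.89e-17). Cofilin (Cfl1), which severs filaments, was at 412, 424, 291 and 287 CPM (-0.53), and beta-actin (Actb) at 2598, 2557, 1823 and 1814 CPM (-0.50). Both icKO libraries were below both controls for these 3. Profilin (Pfn1) changed by -0.58, and smooth muscle actin (Acta2) by -0.90. Cap2, which recycles monomers, was the 1 that rose (0.17), and it lost its call with library totals (0.08), with scaling to markers of other cell types (0.12), without control replicate 2 (0.14) and without icKO replicate 2 (0.13).

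Other parts of the cytoskeleton showed smaller or mixed differences. Of 31 tubulins and microtubule-associated proteins 6 rose and 18 fell (median -0.16, -0.20 to -0.11 without 1 library, 0.51 when scaled to the myelin list), with the destabiliser stathmin (Stmn1) at 219, 225, 133 and 128 CPM (-0.77, or -0.47 with the length offset). Of 30 kinesin and dynein genes 8 rose and 9 fell, with a median of 0.0017 and no gene past 1.5-fold. That median was -0.03 with the length offset, -0.08 with library totals, -0.0054 without control replicate 1 and -0.0018 without icKO replicate 1. Filamins, talins and focal adhesion genes counted 5 rises and 13 falls of 23 (median -0.17, or -0.26 with the length offset, 0.50 when scaled to the myelin list). The laminin receptor chain Itga6 (0.62) rose and tensin-2 (Tns2, -0.60) fell, while filamin A (Flna, 0.06, or -0.08 with the length offset) did not pass the test. Among 12 intermediate filament and lamin genes 6 rose and 4 fell (median 0.17). The neurofilament chains Nefh (78.0, 74.4, 143.5 and 139 CPM, 0.89) and Nefm (0.54), which are neuronal, were higher, and vimentin (Vim, -0.49), nestin (Nes, -0.56) and desmin (Des, -0.71), the last of muscle and pericytes, were lower.

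Ankyrin genes and their partners in the membrane skeleton other than spectrins were mixed. Of 19 genes 6 rose and 6 fell, with a median of -0.07, -0.13 with the length offset, 0.61 when scaled to the myelin list and -0.0064 without icKO replicate 2. Ank3, the knockout target given above, is in this list and is 1 of the 6 that fell. Ank2, the gene of ankyrin-B, was at 1950, 1882, 3647 and 3577 CPM (0.91, edgeR adjusted p = 4.72e-27), both icKO libraries above both controls, and was the 1 gene of this list that changed by 1.5-fold. Dematin (Dmtn), which bundles actin, changed by 0.45, and the protein 4.1 gene Epb4.1l3 by -0.24.

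Genes of pericytes and vascular smooth muscle, the contractile and supporting cells of vessel walls, were lower almost throughout. Of 19 listed genes 17 fell and 1 rose, and 15 fell by at least 1.5-fold. The median was -0.76, or -0.81 under the length offset, and -0.09 when scaled to the myelin list. Summed without Cspg4, which precursors make as well, the list was at 2294 and 2329 CPM in control and 1297 and 1308 CPM in icKO IPs, a ratio of 0.564. Beside it the myelin list stood at 0.64 and the precursor list at 0.856 of control.

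Rgs5, a regulator of G protein signalling and a pericyte marker (chromosome 1, 169655501 to 169695813, mm10, plus strand), was at 244.8 CPM in both control IPs and at 106 and 108.5 CPM in the icKO IPs, a log2 change of -1.19 (SE 0.037, edgeR adjusted p = 2.93e-23). The KATP channel genes Abcc9 (240.0, 239, 118 and 125 CPM, -0.98) and Kcnj8 (49.8, 58.3, 23.1 and 21.2 CPM, -1.29) encode the 2 subunits of 1 channel of mural cells. Pdgfrb, the receptor through which endothelium recruits pericytes, was at 297.5, 302, 174 and 173 CPM (-0.79, edgeR adjusted p = 1.07e-19). In each of these genes both icKO libraries were below both controls. Vitronectin (Vtn) was at 663, 650.2, 339 and 350 CPM (-0.93), and Notch3, the receptor that maintains smooth muscle, at 237, 245, 142 and 142 CPM (-0.76). Ndufa4l2 was at 16.9, 16.9, 5.22 and 5.64 CPM (-1.64, edgeR adjusted p = 5.39e-12). Its fall was the largest among genes called, leaving aside predicted gene models, symbols turned into dates and duplicated symbols. Higd1b (-1.56), Tagln (-1.27), Acta2 (-0.90), Myh11 (-0.72) and Anpep (-0.64) followed the same direction, and Itga8 (0.02) did not pass the test.

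NG2 and the precursor receptor did not follow these genes. Cspg4 was at 877, 890, 920 and 955 CPM, a log2 change of 0.08 (edgeR adjusted p = 0.00411) that became -0.0013 with library totals, -0.05 with the length offset, 0.03 with scaling to markers of other cell types and 0.06 without icKO replicate 2, the last 4 values past no threshold. Pdgfra, a growth factor receptor that marks precursors, was at 2202, 2197, 2160 and 2149 CPM (-0.03, edgeR adjusted p = 0.226). It was called lower with library totals (-0.12), the length offset (-0.13), scaling to markers of other cell types (-0.08) and no filter on low counts (-0.05).

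Genes outside that list made up the rest of the 15 largest falls. Casq2, a calcium store protein of muscle, was at 16.1, 16.3, 5.33 and 5.32 CPM (-1.60, edgeR adjusted p = 1.13e-11). Mgp, a matrix protein of arteries, was at 25.6, 29.2, 10.8 and 9.22 CPM (-1.45, edgeR adjusted p = 8.04e-13). The thromboxane receptor gene Tbxa2r (-1.52), the transcription factor gene Tbx2 (-1.31) and the connexin gene Gjc1 (-1.24) were lower to a similar extent. The groups did not overlap for these genes, as for 77.6% of all 11462 genes. The lactate transporter Slc16a3 (-1.55), Arhgdib (-1.49), Shisa8 (-1.43), Eva1b (-1.26) and Spp1 (-1.24) complete the list with Ddx3y.

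**Figure D2:**
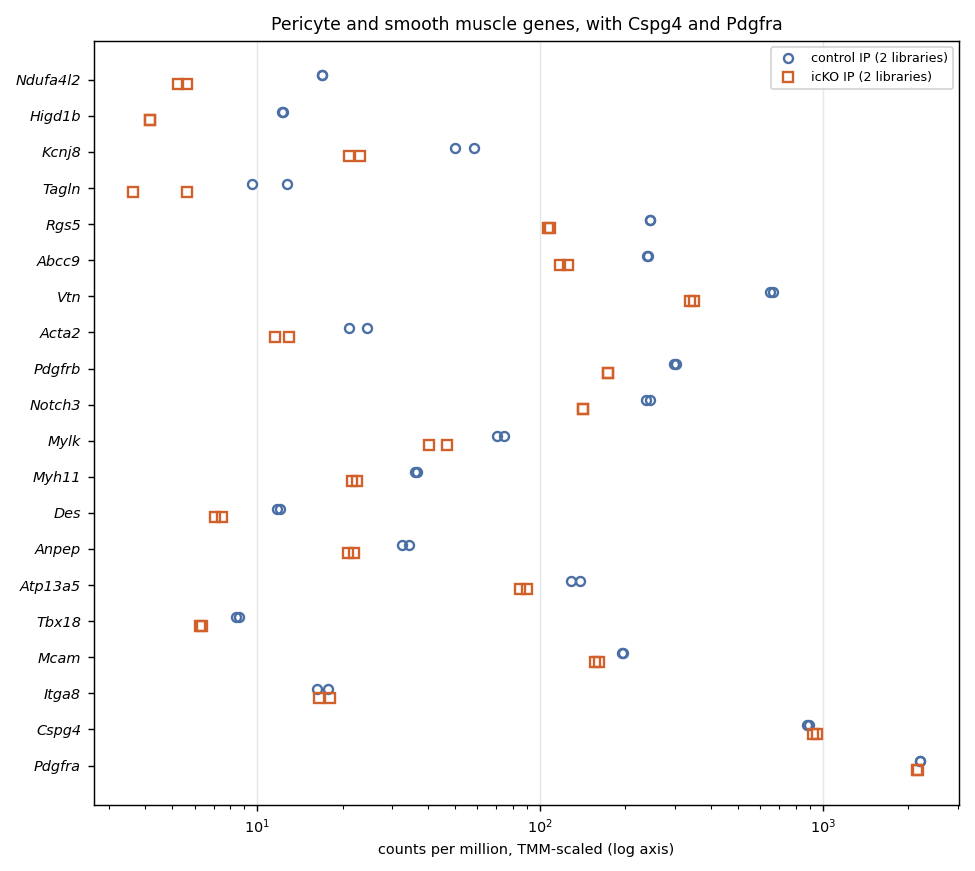
Levels of the 19 listed pericyte and vascular smooth muscle genes, with Cspg4 among them and Pdgfra below, in each library as TMM-scaled CPM on a log axis. Genes are ordered by change from Ndufa4l2 (-1.64) at the top, and the icKO squares lie to the left of the control circles for 17 of the 19, while those of Itga8, Cspg4 and Pdgfra lie close to the control circles.

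Serum response factor, a transcription factor of contractile genes, binds the CArG box. Promoter windows of RefSeq (GRCm38.p6), reaching from 250 bases before to 50 bases after each start site, were searched for it on both strands, which read alike because the motif is its own reverse complement. It was found in 535 of 32851 windows of all genes (1.63%), in 145 of 11357 windows of the genes described (1.28%), in 9 of 455 windows of genes at least 1.5-fold lower (1.98%), in 3 of 392 windows of genes at least 1.5-fold higher (0.765%), and in 0 of 14 windows of the mural list. Windows were found for only 14 of the 19 mural genes and 8744 of the 11462 genes described. A match is a description of letters and not a binding site. Other genes with the motif before the start site were Igf2, Ldb3, Gstp1, Vma21 and Tceal8, which fell, and Alpk1, Col6a4 and Meg3, which rose. Shown here are the 250 bases before the start site of 2 contractile genes that fell and hold the motif, Myl9 (chr2:156775214-156775463, plus strand) and the calponin gene Cnn2 (chr10:79988350-79988599, plus strand), written 5′ to 3′ with the CArG box in capitals. It begins 161 bases before the start of Myl9 and 56 bases before that of Cnn2.
Myl9: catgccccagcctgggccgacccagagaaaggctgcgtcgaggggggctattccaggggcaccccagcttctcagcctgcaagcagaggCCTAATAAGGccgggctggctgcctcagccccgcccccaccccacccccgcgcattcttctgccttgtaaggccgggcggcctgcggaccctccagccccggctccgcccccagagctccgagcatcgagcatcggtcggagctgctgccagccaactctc
Cnn2: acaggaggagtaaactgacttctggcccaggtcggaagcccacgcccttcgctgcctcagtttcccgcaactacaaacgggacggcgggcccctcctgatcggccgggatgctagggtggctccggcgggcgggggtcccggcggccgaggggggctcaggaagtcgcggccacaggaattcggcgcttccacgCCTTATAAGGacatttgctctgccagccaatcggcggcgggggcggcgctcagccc
Cnn2, whose product steadies actin in smooth muscle and non-muscle cells, was at 22.0, 18.2, 9.39 and 7.98 CPM (-1.21, edgeR adjusted p = 1.05e-09). It was chosen for this display after its values were seen, and both icKO libraries lay below both controls, as for Myl9 above.

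Endothelial and interferon genes leaned lower, and matrix genes changed in both directions. Of 13 endothelial genes 7 fell and 3 rose (median -0.33, -0.20 with the length offset, 0.34 when scaled to the myelin list). The clotting factor Vwf (24.6, 22.4, 13.3 and 12.5 CPM, -0.86), Eng (-0.70) and Flt1 (-0.62) fell, and the transporter Slco1c1 (0.58) rose. Cldn5, the tight junction gene of these cells, was at 2.39, 2.19, 2.005 and 1.47 CPM, below the limit of 5 CPM and so outside the genes described, and did not pass the test. Of 41 extracellular matrix genes 9 rose and 17 fell (median -0.01, -0.05 with the length offset, -0.068 to -0.003 without 1 library, 0.66 when scaled to the myelin list), with Col12a1 (33.2, 33.2, 63.0 and 59.2 CPM, 0.88) rising beside Col1a1, and Bgn (-0.88) and Sparc (-0.79) falling. Interferon and antigen presentation genes counted 1 rise and 9 falls of 14 (median -0.37, 0.30 when scaled to the myelin list). Il33, an alarmin stored in nuclei of oligodendrocytes and astrocytes, was at 75.2, 84.4, 44.3 and 41.0 CPM (-0.91, edgeR adjusted p = 1.1e-13), and B2m, the light chain of class I molecules, changed by -0.62, or -0.30 with the length offset. Of 7 connexin and pannexin genes 3 fell and 2 rose (median -0.22, 0.46 when scaled to the myelin list). Those that fell by at least 1.5-fold were Gjc1, the vessel gene Gja4 (12.4, 14.2, 6.65 and 5.54 CPM, -1.12) and the oligodendrocyte gene Gjc3 (242, 247, 155 and 156 CPM, -0.65). The rises were those of the pannexin gene Panx2 (0.36) and of Gjb6 (0.47, or 0.37 to 0.58 without 1 library). Gjb6 lost its call with library totals (0.38) and in DESeq2 (0.47). It also lost it without control replicate 1 (0.37), icKO replicate 1 (0.48) or icKO replicate 2 (0.45).

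Genes of oligodendrocyte precursors fell moderately. Of 30 listed genes 22 fell and 1 rose, and 3 fell by at least 1.5-fold, with a median of -0.23, or 0.44 when scaled to the myelin list. With the length offset 26 fell and 0 rose. Lhfpl3 was at 180, 190, 115 and 118.5 CPM (-0.66, edgeR adjusted p = 2.43e-15) and Cacng4, an auxiliary subunit of AMPA receptors, at 164, 160.5, 108 and 104 CPM (-0.62, edgeR adjusted p = 2.63e-14). The 1 rise was Cspg4, with the limits given above. The matrix proteoglycan Vcan changed by -0.26, or -0.49 with the length offset. Cell cycle genes, carried in adult brain mainly by these precursors, did not fall with them: 8 of 22 rose and 4 fell (median 0.07, 0.08 to 0.10 without 1 library, -0.02 with library totals). Cenpf (16.0, 15.4, 28.3 and 25.2 CPM, 0.78), Top2a (0.55) and Mki67 (20.0, 17.2, 26.3 and 25.5 CPM, 0.48, or 0.30 with the length offset) were higher, and Pcna (-0.42) and Cdk4 (-0.41) were lower, or -0.20 and -0.26 with the length offset.

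Among signals and adhesion molecules of glia and axons, axoglial adhesion genes counted 7 rises and 9 falls of 26 (median -0.04, -0.12 with the length offset, -0.06 to -0.02 without 1 library, 0.64 when scaled to the myelin list). The scaffold Mpdz rose (292, 291, 476 and 474 CPM, 0.70), and Cadm4 (-0.55) and Lgi3 (-0.51) fell. With the length offset 2 of the 26 rose and 14 fell. Of 46 axon guidance genes 15 rose and 12 fell (median 0.04, 0.03 to 0.06 without 1 library, -0.04 with the length offset, -0.05 with library totals, -0.02 with scaling to markers of other cell types), and the 2 that fell by at least 1.5-fold were Unc5b (-0.68) and Efnb3 (-0.62). Of 33 growth factor, Notch and Wnt genes 7 rose and 15 fell (median -0.14, 0.53 when scaled to the myelin list), with Pdgfrb and Notch3, given above, as the largest falls. Junction scaffolds were mixed, at 10 rises and 9 falls of 26 (median 0.02, 0.0033 to 0.0281 without 1 library, -0.02 with the length offset, -0.06 with library totals, -0.03 with scaling to markers of other cell types), with cingulin (Cgn, 18.4, 18.1, 31.3 and 32.2 CPM, 0.80) the 1 gene past 1.5-fold.

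Channels and receptors of excitable membranes were higher as classes. Of 46 voltage-gated sodium, potassium and calcium channel genes 32 rose and 7 fell (69.6% and 15.2%), with a median of 0.29, or 0.14 with the length offset, where 25 rose and 8 fell. Kcnt1, a sodium-activated potassium channel, was at 82.7, 83.6, 127 and 139 CPM (0.68, edgeR adjusted p = 9.45e-14), and the P/Q calcium channel Cacna1a at 241, 245, 384 and 372 CPM (0.64, edgeR adjusted p = 4.39e-18). Scn1a changed by 0.45, Scn8a by 0.36 (0.15 with the length offset) and Scn2a1 by 0.30 (0.14 with it), and all 3 encode channels that ankyrin-G holds at the axon initial segment. The glial inward rectifier Kcnj10 (424, 439, 323 and 315 CPM, -0.44), Kcna6 (-0.41) and Kcna1 (-0.39) fell. Glutamate and GABA receptors showed 20 rises and 3 falls of 34, with a median of 0.19, or 0.10 with the length offset. Gabra4 (27.8, 27.6, 46.3 and 40.7 CPM, 0.65), Gabra2 (0.65) and Gria2 (666, 652, 929 and 905 CPM, 0.48, or 0.28 with the length offset) were among those that rose. Of 23 ATPase and ion transporter genes 8 rose and 11 fell (median -0.09, -0.10 to -0.06 without 1 library, 0.59 when scaled to the myelin list).

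Neuronal genes rose in part. Of 40 neuron and synapse genes 19 rose and 10 fell, 3 of them by at least 1.5-fold upward, with a median of 0.08 that was -0.0027 with library totals and 0.05 to 0.10 without 1 library. The postsynaptic scaffolds Shank2 (398, 392, 652.5 and 678 CPM, 0.75) and Shank3 (0.68) and the kinase gene Camk2a (964, 964, 1186 and 1188 CPM, 0.30) were higher, and Rab3a (-0.31) and Nsg1 (-0.31) were lower, Rab3a at -0.09 and past no threshold with the length offset. Of 10 neuropeptide genes 0 passed edgeR's test in either direction, and their median was -0.01, 0.66 when scaled to the myelin list and 0.18 with the length offset, where 4 were higher. Leaving out control replicate 2 (0.00029) or icKO replicate 2 (0.02) turned that median positive, and leaving out control replicate 1 or icKO replicate 1 gave -0.09. The neuronal sum of 1.2 times control stands beside the channel and receptor values above, and its part in them was not tested. Astrocyte genes counted 9 rises and 6 falls of 21 (median 0.13, or 0.21 with the length offset), with Aldh1l1 (15.8, 20.2, 26.6 and 24.6 CPM, 0.51) higher and S100b (146, 142, 87.0 and 87.2 CPM, -0.72) lower, the latter also a gene of oligodendroglia. The summed level of the astrocyte list, given above, was nevertheless 0.939 of control. Of 7 microglia genes 2 rose and 1 fell (median 0.13, 0.08 to 0.19 without 1 library, 0.21 with the length offset). Fcrls was at 4.12, 3.73, 8.86 and 7.76 CPM (1.09, edgeR adjusted p = 4.68e-06), and Csf1r rose by 0.25. Ctss fell (-0.51), and both Csf1r (0.24) and Ctss (-0.52) lost their calls in DESeq2. Csf1r also lost its call with library totals (0.16), with scaling to markers of other cell types (0.19) and without control replicate 2 (0.16). Ctss also lost its call with the length offset (-0.265), without control replicate 1 (-0.435) and without icKO replicate 1 (-0.476). Cx3cr1 (-0.17) did not pass the test. C1qa was called lower (-0.67), but its mean of 3.08 CPM put it outside the genes described. It had no call in DESeq2 (-0.68) or with the length offset (-0.376). The median of 5 choroid plexus and ependymal genes was 0.12, 0.38 with the length offset, 0.04 without control replicate 1, -0.01 without control replicate 2 and -0.0011 without icKO replicate 1. Of these 5 Rarres2 (-1.19) and Foxj1 (-0.90) fell and Clic6 rose (0.49), the last without a call when control replicate 1 (0.37) or icKO replicate 2 (0.31) was left out, with library totals (0.40), with scaling to markers of other cell types (0.44) or in DESeq2 (0.48). Transthyretin (Ttr, 29.4, 32.9, 33.5 and 34.2 CPM), the defining choroid plexus transcript, did not pass the test (0.12), but was called higher with the length offset (0.39, edgeR adjusted p = 0.000115).

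Long non-coding RNAs of a list of mainly nuclear transcripts were higher. Of 14 listed 11 rose and 1 fell, 8 by at least 1.5-fold, and the median was 0.67, or 0.42 with the length offset, where 9 rose. Xist is 1 of the 11. Malat1 (chromosome 19, 5795690 to 5802672, mm10, minus strand), an RNA of nuclear speckles, was at 13900, 13570, 24640 and 24510 CPM, a log2 change of 0.84 (SE 0.016, edgeR adjusted p = 2.46e-29). Meg3 was at 2360, 2352, 3663 and 3743 CPM (0.65, or 0.38 with the length offset, edgeR adjusted p = 1.25e-23). Both icKO libraries exceeded both controls for these genes. Kcnq1ot1 (265, 266, 453 and 452 CPM, 0.77), Snhg14 (0.76), Snhg11 (855, 842, 1345 and 1408 CPM, 0.70), Rian (0.69) and Neat1 (0.43) were higher as well, but with the length offset Kcnq1ot1 (0.03) and Neat1 (0.07) passed no threshold. Of all 144 genes annotated as long non-coding, from which the list was not removed, 72 rose (50%) and 23 fell (16%), with a median of 0.33. Of 11219 protein-coding genes 24.3% rose and 31.4% fell, with a median of -0.03. Several of the listed RNAs, such as Malat1 and Xist, sit mainly in the nucleus, away from ribosomes. They were read in the IPs of both groups.

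Regulators of RNA and chromatin leaned in the same direction with smaller changes. Of 46 splicing factors and hnRNPs 25 rose and 10 fell (median 0.10), with Srrm1 (219, 209, 307 and 309 CPM, 0.52) and Srsf5 (0.43) higher. Quaking (Qk), an RNA-binding protein of oligodendroglia, was at 1682, 1694, 1162 and 1144 CPM (-0.55, edgeR adjusted p = 2.75e-20), and both icKO libraries were below both controls. Of 40 chromatin regulators 21 rose and 4 fell (median 0.11, or 0.04 with the length offset, where 15 rose and 11 fell). The methyltransferase gene Kmt2a (868, 829, 1343 and 1345 CPM, 0.66, or 0.36 with the length offset) and the corepressor gene Ncor1 (626, 631, 981 and 962 CPM, 0.63) rose by at least 1.5-fold. Immediate early genes, induced within minutes by activity or handling, counted 7 rises and 4 falls of 21 (median -0.0027, 0.67 when scaled to the myelin list, 0.13 with the length offset). That median was positive when any 1 library was left out, at 0.15 without control replicate 1, 0.01 without control replicate 2, 0.10 without icKO replicate 1 and 0.03 without icKO replicate 2. Npas4 (12.0, 10.5, 16.3 and 18.99 CPM, 0.65) and Fosl2 (0.60) rose, Jund (165, 163, 97.5 and 97.5 CPM, -0.75) and Ier2 (-0.69) fell, and Ier2 lost its call without icKO replicate 1 (-0.49).

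Short housekeeping transcripts were lower as classes. Of 75 nuclear-encoded subunits of oxidative phosphorylation 68 fell (90.7%) and 1 rose, with a median of -0.38 that was -0.13 with the length offset, where 25 fell and 1 rose, and 0.29 when scaled to the myelin list. Uqcrq of complex III was at 57.3, 54.7, 33.2 and 32.9 CPM (-0.76, edgeR adjusted p = 2.46e-11), Cox6a1 of complex IV at 49.4, 50.9, 30.0 and 30.8 CPM (-0.72, or -0.37 with the length offset) and Ndufa1 of complex I at 7.68, 8.43, 4.96 and 4.02 CPM (-0.84, or -0.49 with the length offset). The controls were above the icKO libraries in all 3. Of 75 cytosolic ribosomal protein genes 70 fell (93.3%) and 0 rose, with a median of -0.31 that was -0.06 with the length offset, where 16 fell and 3 rose, and 0.36 when scaled to the myelin list. Rpl41 was at 56.3, 54.7, 35.5 and 36.2 CPM (-0.63, or -0.29 with the length offset), and Rpl18 at 58.1, 55.4, 35.2 and 40.3 CPM (-0.59). The tagged gene Rpl22 was at 47.4, 53.0, 45.0 and 41.1 CPM (-0.22, edgeR adjusted p = 0.00779), and it passed no threshold with the length offset (-0.07), without control replicate 2 (-0.14) or without icKO replicate 2 (-0.16).

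The same pattern, a fall that shrank once the trend with length was removed, held for other machinery of protein and energy metabolism. Mitochondrial ribosomal proteins counted 19 falls and 2 rises of 52 (median -0.22, -0.08 with the length offset), proteasome subunits 23 and 1 of 36 (-0.22, -0.04 with it), ER chaperones and translocon genes 24 and 2 of 35 (-0.28, -0.18 with it), and antioxidant and iron genes 20 and 0 of 26 (-0.36, -0.17 with it). When scaled to the myelin list these medians were 0.46, 0.46, 0.40 and 0.31. The share of mitochondrial ribosomal protein genes that fell, 36.5%, was near the 31.2% of all 11462 genes. The glutathione peroxidase Gpx4, which protects membrane lipids, was at 73.3, 69.7, 34.1 and 39.8 CPM (-0.95, edgeR adjusted p = 1.06e-13). Translation factors had 28 falls and 1 rise of 48 (median -0.14, -0.08 with the length offset, 0.53 when scaled to the myelin list), and aminoacyl-tRNA synthetases 9 and 0 of 20 (-0.06, -0.03 with the length offset, -0.11 to -0.03 without 1 library, 0.61 when scaled to the myelin list). Heat shock chaperones had 20 falls and 1 rise of 29 (-0.14, -0.09 with the length offset, 0.54 when scaled to the myelin list). Stress response and serine synthesis genes had 12 falls and 2 rises of 20 (-0.25, 0.42 when scaled to the myelin list). Phgdh, the first enzyme of serine synthesis, was at 97.2, 96.7, 69.0 and 67.3 CPM (-0.51), and Eif2ak4, the kinase that senses lack of amino acids, rose by 0.54.

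Lysosome and autophagy genes fell in 26 of 35 cases and rose in 1, with a median of -0.28 that was -0.22 with the length offset, where 24 fell, and 0.39 when scaled to the myelin list. The tetraspanin gene Cd63 was at 61.6, 63.9, 37.0 and 33.2 CPM (-0.84, edgeR adjusted p = 2.17e-12), and the cholesterol carrier gene Npc2 at 52.4, 52.5, 33.1 and 30.9 CPM (-0.71, edgeR adjusted p = 2.01e-10). Vesicle coats counted 15 falls and 5 rises of 35 (-0.07, 0.60 when scaled to the myelin list). Glycolysis genes counted 15 and 2 of 25 (-0.22, -0.08 with the length offset, 0.46 when scaled to the myelin list). Their largest falls were those of Slc16a3 (-1.55) and the glucose transporter Slc2a1 (64.8, 67.9, 39.8 and 44.8 CPM, -0.65), which endothelium also makes. Genes of the tricarboxylic acid cycle and fatty acid oxidation counted 11 and 0 of 30 (-0.13, -0.05 with the length offset, 0.55 when scaled to the myelin list). Their share of falls, 36.7%, was near the 31.2% of all 11462 genes. Cholesterol genes counted 15 falls and 2 rises of 30 (-0.15, 0.53 when scaled to the myelin list), with the carrier Apoe at 1098, 1113, 757 and 779 CPM (-0.53, or -0.29 with the length offset) and the sterol sensor gene Insig1 at 54.1, 54.4, 38.3 and 36.4 CPM (-0.54).

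**Figure D3:**
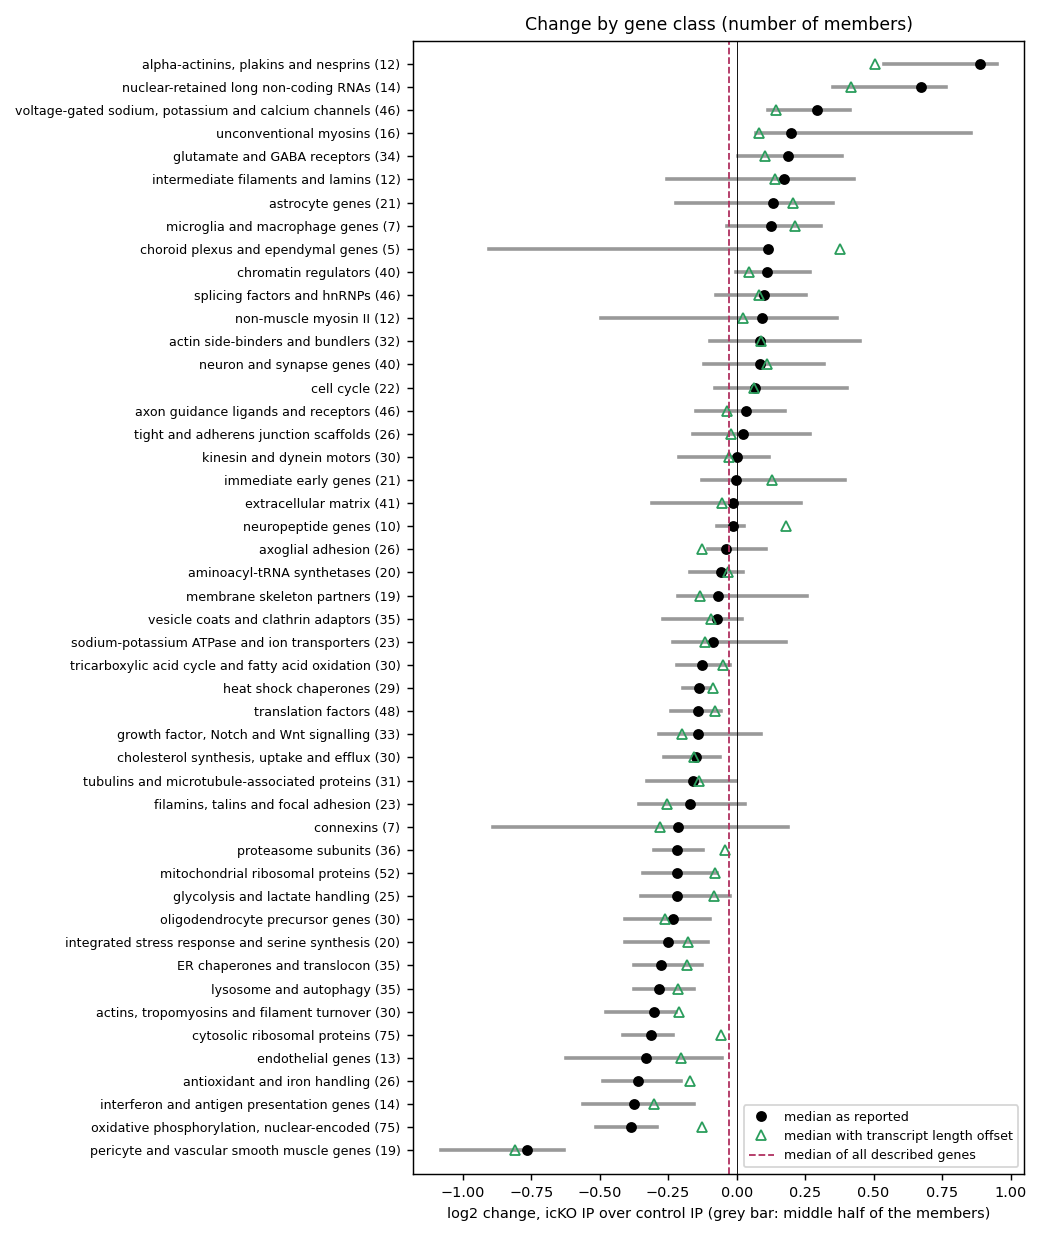
Median log2 change of 48 gene classes, ordered by median, with the number of members in brackets. Dots show the median as reported, grey bars the interquartile range of the members, open triangles the median with the transcript length offset, and the dashed line the median of all 11462 genes (-0.03). Triangles of the oxidative phosphorylation and cytosolic ribosomal protein classes lie nearer to 0 than their dots, while that of the mural class does not.

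Transcript length ran through all of these genes. A length was found for 11405 of them (99.5%), and across those genes, which are not independent replicates, Spearman's rank correlation of the log2 change with length was 0.363. In the shortest decile (60 to 1668 bases) 55.2% of genes fell and 4.65% rose, with a median of -0.30. In the longest decile (7334 to 123179 bases) 15.7% fell and 56.8% rose, with a median of 0.18. Among the risen cytoskeletal genes above, Dbn1 (3078 bases), Actn2 (3013 bases) and Nexn (2564 bases) have transcripts shorter than the median of 3731 bases. Others are longer, such as Plec (15455 bases), Myo5a (11702 bases), Ppp1r9a (9547 bases) and Myh10 (7791 bases). Of the 12 alpha-actinins, plakins and nesprins 11 are above that median. The part of length in a result was tested only through the offset given beside it.

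**Figure D4:**
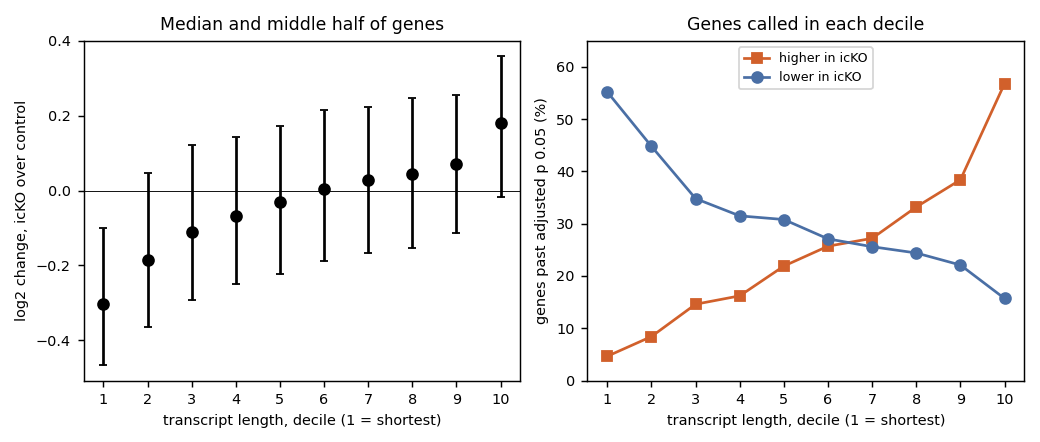
Left, median log2 change of icKO over control with its interquartile range, by decile of transcript length from shortest (1) to longest (10). Right, percent of genes in each decile past adjusted p 0.05 in each direction. The median climbs from -0.30 to 0.18, and the share of higher genes climbs from 4.65% to 56.8% while that of lower genes drops from 55.2% to 15.7%.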

How the data were processed

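RNA of 4 RiboTag immunoprecipitates (2 control, 2 icKO, each a pool of 3 mouse brains) was compared. The authors deposited raw read counts per gene symbol. Per the submitters' processing notes, Trimmomatic 0.39 served for trimming and STAR 2.7.10b for alignment to mm10. The sources used here do not give the counter, its annotation, strand setting or treatment of PCR duplicates, which leaves paralogs and overlapping genes uncertain. In the deposited counts 27 symbols had become dates, which hides members such as septins.

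Counts were scaled with TMM, filtered with filterByExpr and tested with edgeR 4.0.16 (R 4.3.3) by the quasi-likelihood F test, two-sided, on genotype alone, with Benjamini-Hochberg adjustment over 15069 genes and calls at an adjusted p under 0.05. The fit had 2 residual and 29.7 prior degrees of freedom. The procedure was tested on simulated counts. Alternatives used DESeq2 1.42.0, other scalings and filters, glmTreat at 1.2-fold, a loess offset for transcript length (span 0.5), a replicate block and leaving out each library.

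Named were Ank3, anchor genes of each list, the 15 largest rises and falls other than predicted models, and the 2 largest rises and falls of each class, with further list members as examples. Members, lists (50 lists, 1562 symbols, 1545 found exactly and 15 by an older symbol, with 22 in more than 1 list) and the sex-linked genes were chosen with earlier results of these data known. Coordinates and lengths are from GENCODE vM21 on mm10. Some genes and 1 gene class are not reported here.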

Additional observations from a re-analysis of the deposited data

How the results depend on the processing

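Of 11462 genes 2838 were higher and 3575 lower, and 423 and 495 were so by at least 1.5-fold. Scaled to the myelin list these counts were 10494, 84, 6558 and 12, since all genes shift by 0.67. With library totals 238 were at least 1.5-fold higher and 811 lower, with the length offset 319 were at least 1.5-fold lower, and glmTreat against 1.2-fold left 1037 higher and 1266 lower. A minimum mean of 1 CPM gave 781 genes at least 1.5-fold higher, and one of 20 CPM gave 197 higher and 263 lower. Leaving out each library in turn gave 2371 to 2551 higher and 3069 to 3214 lower genes, 445 to 467 of them at least 1.5-fold higher and 518 to 551 lower.

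No label pairs libraries by replicate number, and deviations of same-numbered libraries had a correlation of -0.0057. With the replicate number as a block 2883 genes were higher and 3644 lower, 422 and 499 of them by at least 1.5-fold, and no named gene changed its call.

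Scaling to the myelin list turned 29 negative class medians positive: membrane skeleton partners 0.61, actins and turnover factors 0.37, filamins and talins 0.50, tubulins 0.51, cytosolic ribosomal proteins 0.36, translation factors 0.53, tRNA synthetases 0.61, mitochondrial ribosomal proteins 0.46, proteasome 0.46, ER genes 0.40, heat shock 0.54, stress response 0.42, vesicle coats 0.60, lysosome 0.39, oxidative phosphorylation 0.29, glycolysis 0.46, tricarboxylic acid cycle 0.55, cholesterol 0.53, antioxidant 0.31, ATPases 0.59, connexins 0.46, axoglial adhesion 0.64, growth factors 0.53, precursors 0.44, endothelium 0.34, interferon 0.30, matrix 0.66, immediate early genes 0.67 and neuropeptides 0.66. With library totals 6 medians turned negative: actin side-binders (-2.8e-05), neuron genes (-0.0027), axon guidance (-0.05), cell cycle (-0.02), kinesins and dyneins (-0.08) and junction scaffolds (-0.06). In the fit of genes of at least 5 CPM matrix (0.02), immediate early (0.03) and neuropeptide (0.02) medians turned positive, RLE factors turned that of immediate early genes (0.0017), and DESeq2 (-0.0037), no filter (-0.02) and scaling to markers of other cell types (-0.05) turned that of kinesins. Leaving out 1 library changed the sign of 4 medians (choroid plexus, immediate early, kinesin and neuropeptide genes).

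Among named genes called with or without it, the length offset turned Map1b (-0.0806), Kif1b (-0.19), Dync1h1 (-0.10), Sema5a (-0.19), Cspg4 (-0.0524), Slc1a2 (-0.13), Hspa4l (-0.011) and Lrp1 (-0.16) negative and Psma1 (0.25), Ftl1 (0.00782) and Penk (0.19) positive. By the same criterion library totals turned Kif1b (-0.0857), Sema5a (-0.0792), Cspg4 (-0.0013), Slc1a2 (-0.00099) and Calr (-0.0048) negative. The cause was not tested.

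In DESeq2, 17 of the 259 named genes no longer passed. Depth limits genes near 5 CPM, where 3 counts correspond to 0.125 to 0.158 CPM.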
